A study of Danio rerio with 8 samples.

Results

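The neurofilament genes *nefla*, *neflb*, *nefma* and *nefmb*, the internexin genes *inaa* and *inab*, the peripherin gene *prph* and the vimentin gene *vim* were followed in larval zebrafish heads with and without *mtmr5* (*sbf1*). The 8 genes were taken by symbol from the 32520 rows of the raw count table. Each had 1 row, and all 8 were among the 19412 rows that passed the filter on low counts (10 or more counts in 3 or more libraries). The 8 libraries came from AB-strain larvae at 7 days post-fertilization (dpf), 4 from WT larvae and 4 from larvae homozygous for a CRISPR/Cas9 deletion of the whole *mtmr5* gene (*mtmr5*-KO). Each library held polyA RNA of pooled heads that had been genotyped by fin clip, and the replicates were collected over time from different breeding pairs. The paper calls the WT larvae siblings of the *mtmr5*-KO larvae. A head holds eyes, skin, muscle and cartilage beside the brain, and in such bulk RNA a change in the number of cells of a type and a change in RNA per cell cannot be told apart.

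Neurofilaments are the intermediate filaments of axons. They assemble as mixed polymers, in which light subunits (*nefla* and *neflb*) form the core and medium subunits (*nefma* and *nefmb*) carry long phosphorylated side arms, together with alpha-internexin in central and peripherin in peripheral neurons of mammals. They accumulate in large axons, where they set axon calibre, and mutations of human *NEFL* cause forms of Charcot-Marie-Tooth disease. Vimentin is the intermediate filament of mesenchyme, radial glia and the lens. In the RefSeq table of the zebrafish assembly GRCz12tu, in which all 8 genes were found, *nefla* and *nefma* are next to each other, as are *nefmb* and *neflb*, so that the a and b copies form 2 light and medium pairs.

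Total counts were between 16104181 and 22761120 per library. The targeted gene had 1894 to 2545 raw counts in the WT libraries and 26 to 63 in those of *mtmr5*-KO. Mitochondrially encoded transcripts took 6.43% to 8.82% of all counts in the WT libraries and 18.6% to 26.6% in those of *mtmr5*-KO. Counts were therefore compared after TMM scaling, which sets the bulk of the genes equal between libraries, and again with other scalings. The TMM-scaled counts given here are raw counts divided by the effective size of each library and brought to the mean effective size. Scaling to library totals instead moved the median over all genes from -0.02 to -0.98 in log2 fold change. With totals taken without the 20 most abundant rows this median was -0.18.

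The 4 neurofilament genes were higher in *mtmr5*-KO heads, by 2.08-fold to 3.89-fold (for *nefma* not with library totals). With TMM no call was made for *inaa*, *inab*, *prph* or *vim*. Thus 4 of 8 genes were higher at an adjusted p under 0.05 (quasi-likelihood test of edgeR, Benjamini-Hochberg adjustment over all tested genes), beside 13.5% of all tested genes. The same 4 were also higher by edgeR at the thresholds of the study (an absolute log2 fold change over 1 at an adjusted p under 0.01). At these thresholds 7.13% of all tested genes were higher by edgeR, whereas the study itself used DESeq2. In the TMM-scaled counts of these 4 genes the genotypes did not overlap, as in 13.9% of all tested genes with *mtmr5*-KO higher, and no member had every *mtmr5*-KO library below every WT library, as 11.0% of all tested genes had. None of the 8 was lower by edgeR, where 7.51% of all tested genes were, and the count was also 0 by DESeq2 and limma-voom and at an unadjusted p under 0.05 by each tool. The median log2 fold change of the 8 genes was 0.84.

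**Figure D1:**
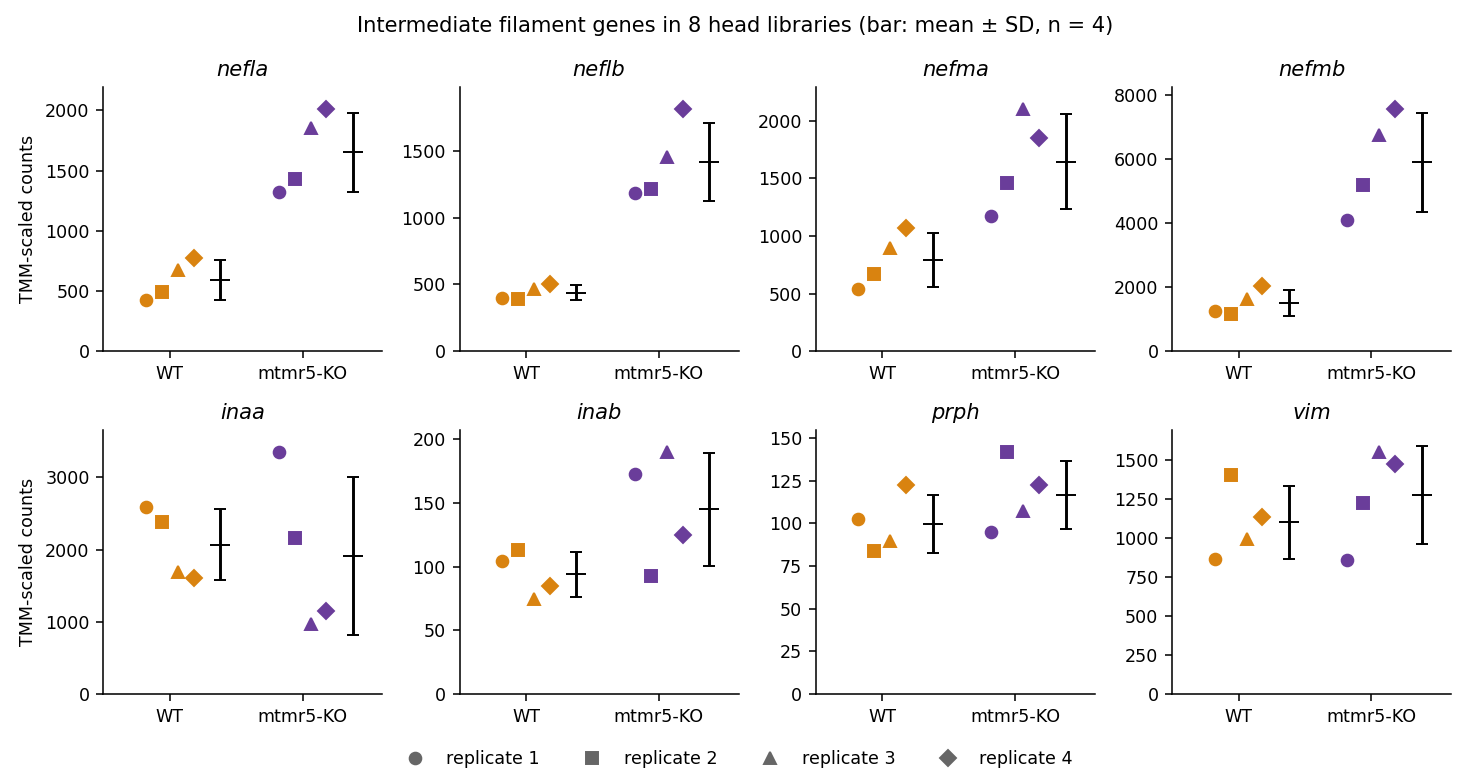
TMM-scaled counts (linear axis from 0) of the 8 intermediate filament genes in the 4 WT (orange) and 4 *mtmr5*-KO (purple) libraries, with the symbol giving the replicate and the bar the mean ± SD. The genotypes are apart for the 4 neurofilament genes in the upper row, for example 1145 to 2045 against 4098 to 7558 for *nefmb*, and overlap for the 4 genes in the lower row.

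Of the light subunits, *neflb* had 394, 391, 465 and 504 TMM-scaled counts in WT replicates 1 to 4. Replicates 1 to 4 of *mtmr5*-KO had 1182, 1210.5, 1456 and 1812. The genotypes did not overlap, and even in unscaled raw counts, with 560 to 654 against 721 to 871, every *mtmr5*-KO library was above every WT library although its total was smaller. Its mean rose from 439 ± 55.4 to 1415 ± 292 (mean ± SD of 4 libraries), which corresponded to 1.69 ± 0.17 (log2 fold change ± SE, adjusted p = 3.32e-06, edgeR).

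*nefla*, the other light subunit gene, had 421, 489, 674 and 776 TMM-scaled counts in WT replicates 1 to 4. In *mtmr5*-KO replicates 1 to 4 it had 1318, 1429, 1849.6 and 2009. The genotypes again did not overlap, and in both of them replicates 3 and 4 were above replicates 1 and 2. *nefla* rose by 1.48 ± 0.20 (log2 fold change ± SE, adjusted p = 7.25e-05, edgeR).

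Of the medium subunits, *nefmb* had 1255, 1145, 1619.9 and 2045 TMM-scaled counts in WT replicates 1 to 4. The corresponding *mtmr5*-KO values were 4098, 5193, 6760.3 and 7558. The lowest *mtmr5*-KO library was above the highest WT library by more than the whole WT range. The mean of *nefmb* rose from 1516 ± 407 to 5902 ± 1553 (mean ± SD of 4 libraries), or by 1.96 ± 0.22 (log2 fold change ± SE, adjusted p = 1.04e-05, edgeR). By log2 fold change it was at rank 647 of 19412 genes.

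*nefma* had 539, 666, 896 and 1067 TMM-scaled counts in WT replicates 1 to 4. The *mtmr5*-KO values, in the same order, were 1171, 1461, 2100.0 and 1853. The genotypes did not overlap, but WT replicate 4 and *mtmr5*-KO replicate 1 were close. *nefma* rose by 1.06 ± 0.22 (log2 fold change ± SE, adjusted p = 0.0027, edgeR), the smallest value of the 4 neurofilament genes. The call ended without *mtmr5*-KO replicates 3 and 4, which had the highest mitochondrial shares (log2 fold change 0.71, adjusted p = 0.0692).

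The internexin genes differed from this pattern. *inaa* had 2586, 2382, 1691 and 1604 TMM-scaled counts in WT replicates 1 to 4. In *mtmr5*-KO replicates 1 to 4 it had 3349.7, 2163, 967 and 1152, so that the *mtmr5*-KO libraries held both the highest and the lowest values of all 8. On the log2 scale the difference was -0.11 (95% interval -0.96 to 0.73, adjusted p = 0.865 from edgeR). Without *mtmr5*-KO replicates 3 and 4 it was 0.38 (adjusted p = 0.322), with the opposite sign.

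*inab*, also named gefiltin after the goldfish protein of optic nerve axons, was measured with 60 to 173 raw counts per library. It had 104, 113.1, 74.7 and 84.5 TMM-scaled counts in WT replicates 1 to 4. In *mtmr5*-KO replicates 1 to 4 it had 173, 93.0, 189.8 and 125. *mtmr5*-KO replicate 2 was among the WT values and the other *mtmr5*-KO libraries were above them. The log2 fold change of 0.62 (95% interval 0.04 to 1.19) did not pass the threshold after adjustment (adjusted p = 0.12 from edgeR).

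*prph*, also named plasticin, was measured with 53 to 170 raw counts per library. It had 103, 83.8, 89.8 and 123 TMM-scaled counts in WT replicates 1 to 4 and 95.2, 142, 107 and 123 in *mtmr5*-KO replicates 1 to 4. The values of the genotypes were mixed. For *prph* the log2 fold change was 0.23 (95% interval -0.29 to 0.75, adjusted p = 0.556 from edgeR).

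*vim* had 866, 1406, 996 and 1133 TMM-scaled counts in WT replicates 1 to 4 and 858, 1225, 1551 and 1473 in *mtmr5*-KO replicates 1 to 4. The genotypes overlapped here too, and the lowest *vim* value of all was in an *mtmr5*-KO library. For *vim* the log2 fold change was 0.21 (95% interval -0.20 to 0.62, adjusted p = 0.478 from edgeR). The vimentin-related genes *viml* and *vimr1*, not among the 8, had higher values of 1.39 and 1.08. Neither was called (adjusted p = 0.224 and 0.0956 from edgeR), and their genotypes overlapped in TMM-scaled counts. Both were measured with few reads, at 1 to 18 raw counts per library for *viml* and 21 to 99 for *vimr1*. The intervals of *prph* and *vim* end below those of *nefla*, *neflb* and *nefmb*, which start at 1.06, 1.33 and 1.49. They overlap that of *nefma*, which starts at 0.59. Lens crystallins, genes of a tissue in which vimentin is a major filament, took 3.31% to 13.0% of the counts in the WT libraries and 0.0294% to 0.565% in those of *mtmr5*-KO, and their part in the *vim* values was not tested. Of 9 mesenchyme markers 1 was higher, and no marker of the 5 tested for endothelium was called (edgeR), beside 13.5% higher and 7.51% lower of all tested genes. The mesenchyme call ended without any single one of WT replicates 2, 3 or 4 or *mtmr5*-KO replicates 1, 3 or 4. With library totals, where *vim* was lower too, 8 of the 9 mesenchyme and 5 of the 5 endothelium markers were lower and none was higher. On that scale 55.7% of all tested genes were lower and 3.71% were higher. With the replicate numbers as a block, 2 mesenchyme markers were higher and 1 was lower, beside 14.8% and 11.7% of all tested genes.

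**Figure D2:**
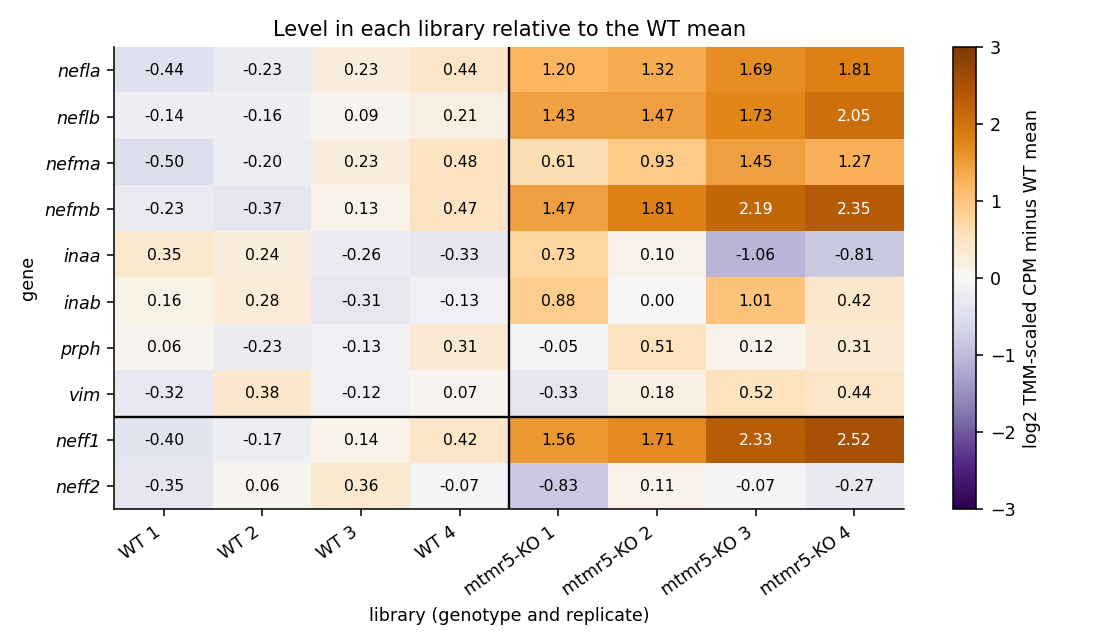
Log2 TMM-scaled CPM of each gene (rows) in each library (columns) minus the mean of the WT libraries, with the value printed in each cell and *neff1* and *neff2* below the line for comparison. *neflb*, *nefmb* and *neff1* are at least 1.43 above the WT mean in every *mtmr5*-KO library, whereas *inaa* is at 0.73, 0.10, -1.06 and -0.81.

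Within each genotype the TMM-scaled values of the 4 neurofilament genes were high and low in much the same libraries. After the mean of each genotype was taken off, Pearson correlations between them over the 8 libraries were 0.794 to 0.963. Those of *inaa* with the same genes were -0.819 to -0.884. On the TMM scale, libraries with more neurofilament transcripts thus tended to hold fewer *inaa* transcripts within a genotype. In CPM of plain library totals this held for some genes only. Among the *mtmr5*-KO libraries, replicate 3 was lowest for *inaa* (25.0), *nefla* (47.8) and *neflb* (37.6) alike. Replicate 1 was lowest for *nefma* (43.8) and *nefmb* (153) and highest for *inaa* (125). The correlations are a description, since all points share the depth and the scaling factor of their library. Among 10121 genes that had a symbol and a mean TMM-scaled count of 100 or more, those most like *nefmb* by this measure were *slc24a6a* (r = 0.993), the deubiquitinase gene *cyld* (r = 0.990), *zgc:101540* (r = 0.983), *iffo1b* (r = 0.981), a relative of the intermediate filaments, and *nrxn1a* (r = 0.979), a presynaptic adhesion protein. When the genotype means were kept, these correlations ranged from -0.61 for *slc24a6a* to 0.99 for *nrxn1a*, so that likeness within genotypes did not always go with likeness between them.

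Because TMM sets most genes equal, the same values were read as shares of the library. In CPM, here raw counts relative to the plain library total, *nefmb* was at 72.1 to 121 in WT against 153 to 226 in *mtmr5*-KO. *neflb* was at 24.6 to 30.0 and 37.6 to 54.1, and *nefla* at 30.8 to 45.8 and 47.8 to 60.0. In these 3 genes every *mtmr5*-KO library was above every WT library, beside 3.65% of all tested genes. *nefma* overlapped, at 39.9 to 63.0 in WT against 43.8 to 59.5 in *mtmr5*-KO. *vim* was lower in every *mtmr5*-KO library, at 64.0 to 88.5 in WT against 32.1 to 49.9 in *mtmr5*-KO, beside 51.6% of all tested genes that were lower without overlap on this scale.

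Tested with library totals in place of TMM, *nefla*, *neflb* and *nefmb* were still higher, with log2 fold changes of 0.51, 0.71 and 0.97 (adjusted p = 0.0481, 0.00746 and 0.000813 from edgeR). That of *nefma* was 0.07 (adjusted p = 0.792), and *vim* was lower, at -0.77 (adjusted p = 0.00457). *inab* and *prph* also changed sign on that scale, to -0.39 and -0.72 (adjusted p = 0.282 and 0.0515). *inaa* kept its sign, at -0.999 (adjusted p = 0.113), near the median over all genes of -0.98. The call of *nefma* and the signs of *inab*, *prph* and *vim* thus depended on the scaling, whereas the other 3 neurofilament genes were called higher under every scaling tried.

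**Figure D3:**
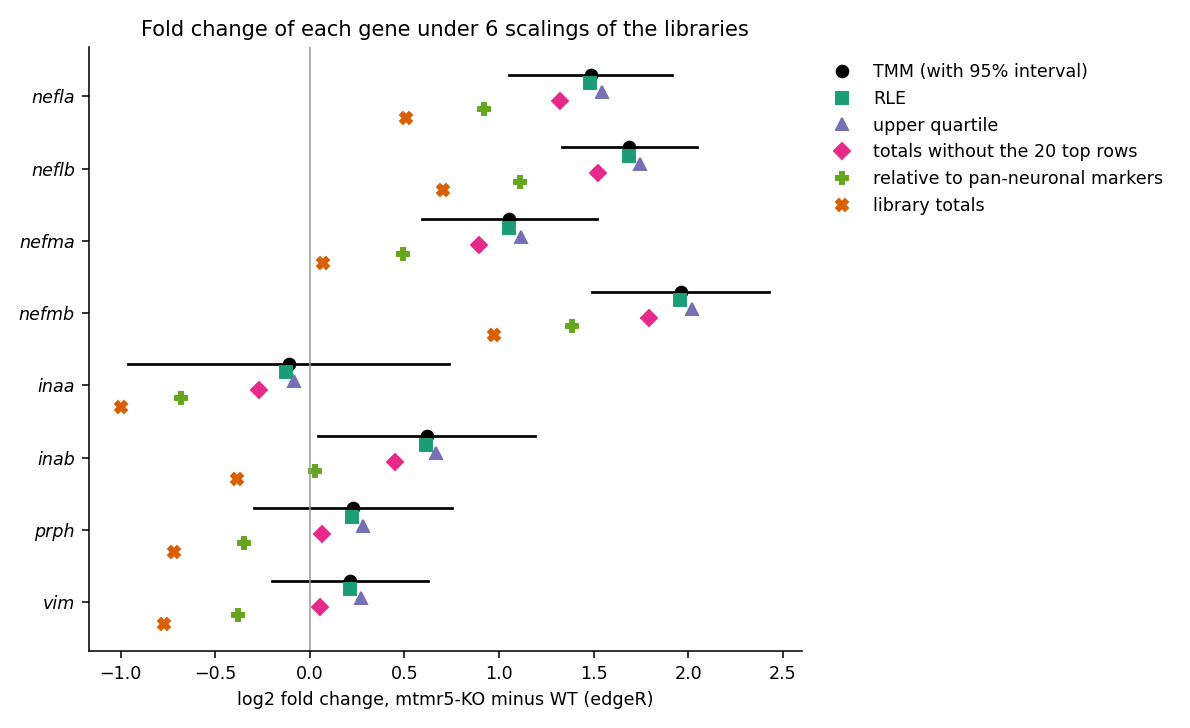
Log2 fold change (*mtmr5*-KO minus WT, edgeR) of each gene under 6 scalings of the libraries, with the 95% interval for TMM. *nefla*, *neflb* and *nefmb* stay above 0 in all 6, from 0.51, 0.71 and 0.97 with library totals upwards, and the markers of *inab*, *prph* and *vim* lie on both sides of 0.

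Neurofilament genes were also compared with other neuronal transcripts, since more markers of all neurons were called higher than lower with TMM. Of 19 pan-neuronal markers, 7 were higher and 1 was lower (edgeR, adjusted p under 0.05), with a median log2 fold change of 0.44, beside 13.5% and 7.51% of all tested genes and a median of -0.02 over them. With the replicate numbers as a block, 9 were higher and 5 were lower, beside 14.8% and 11.7% of all tested genes. With library totals 1 was higher and 9 were lower, beside 3.71% and 55.7% of all tested genes. In TMM-scaled counts their summed level was 130336 to 161059 in the WT libraries and 202212 to 231271 in those of *mtmr5*-KO, but as a share of all counts it was 0.888% to 1.013% and 0.584% to 0.888%. *elavl3*, an RNA-binding protein of young and mature neurons, had a log2 fold change of 1.23 (0.26 and not called with library totals). *stmn2b*, a microtubule regulator of growing axons, was the gene called lower without the block, at -0.55 (adjusted p = 0.0342, and 0.00456 with the block), a call that ended without any single one of WT replicates 2, 3 or 4 or *mtmr5*-KO replicates 3 or 4 (adjusted p = 0.0829, 0.104, 0.0525, 0.0753 and 0.0728). With the summed counts of these 19 genes as the size of each library, the 4 neurofilament genes were still higher. The log2 fold changes on that scale were 0.92 for *nefla*, 1.11 for *neflb*, 0.49 for *nefma* and 1.39 for *nefmb* (adjusted p = 0.000683, 9.35e-05, 0.0394 and 5.72e-05 from edgeR), and 7.29% of all tested genes were higher. Of the 19 markers themselves, 4 were higher and 7 were lower on that scale, beside 7.29% and 40.3% of all tested genes. *elavl3* was at 0.66 there (adjusted p = 0.00177 from edgeR), above *nefma*. Another marker, *vamp2*, was at 1.74 with TMM (adjusted p = 3.29e-06 from edgeR), above the TMM values of *nefla*, *neflb* and *nefma*.

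Retinal ganglion cells, motor neurons and cranial sensory neurons are rich in neurofilaments. Of 8 retinal ganglion cell markers, 2 were higher (*isl2b* at 0.56 and *rbpms2b* at 0.52) and 1 was lower (*atoh7* at -0.87), beside 13.5% and 7.51% of all tested genes. With library totals none of the 8 was higher and 6 were lower, beside 3.71% and 55.7% of all tested genes on that scale. The count of higher genes was 1 without any single one of WT replicates 1, 2 or 3 or *mtmr5*-KO replicates 1 or 3, and no gene was lower without WT replicates 1, 2 or 3 or *mtmr5*-KO replicates 2 or 3, each left out alone, or by limma-voom. Their summed level was 10160.1 to 11338 TMM-scaled counts in WT against 10358 to 14128 in *mtmr5*-KO. Of 6 tested motor neuron markers 1 was higher, the choline transporter gene *slc5a7a* at 0.90, beside 13.5% of all tested genes. With library totals none of the 6 was higher and 3 were lower, beside 3.71% and 55.7% of all tested genes. In TMM-scaled counts the summed level over the 9 listed genes was 1809.9 to 2014 in WT against 2143 to 2609 in *mtmr5*-KO. Most of that sum came from *chata*, *slc18a3a* and *slc5a7a*, with means of 669, 513 and 396 in WT and 830, 426 and 741 in *mtmr5*-KO. The genes *mnx1*, *mnx2a* and *mnx2b* had means of at most 6.11 and were not tested. Of 5 tested cranial sensory neuron markers none was called in either direction by edgeR, beside 13.5% and 7.51% of all tested genes. With library totals 3 of the 5 were lower, beside 55.7% of all tested genes. The summed level of the 7 genes found was 2322 to 2736 TMM-scaled counts in WT against 1609.8 to 3361 in *mtmr5*-KO. Most of that sum was *isl1a*, with means of 2370 in WT and 2218 in *mtmr5*-KO. The tested genes *ntrk2b*, *p2rx3b* and *runx3* had genotype means of 15.1 to 27.4 TMM-scaled counts, which limits what their tests could show. No marker gene was at 0 in all libraries. Markers of muscle, liver, pancreas and epidermis were also higher in TMM-scaled counts in *mtmr5*-KO, with 7 of 9, 7 of 8, 5 of 7 and 3 of 5 tested genes called higher, beside 13.5% of all tested genes. Their summed levels were 3213 to 3796 against 6236 to 9002, 484 to 749.6 against 1283 to 4251, 214 to 322 against 627 to 1308 and 6423 to 13306 against 14233 to 35122. The muscle list also held a gene that was lower, the myosin heavy chain gene *myhz2* at -0.87 (adjusted p = 0.011 from edgeR), which was not called without WT replicate 2. Without *mtmr5*-KO replicates 3 and 4, 1 pancreas and 1 epidermis marker were called higher, beside 8.27% of all tested genes. With library totals, 1 muscle and no epidermis marker was called higher, against 7 liver and 4 pancreas markers, beside 3.71% of all tested genes. Whether the makeup of the dissected tissue had a part in the neurofilament values was not tested.

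The a and b copies of the medium subunit were also set against each other within each library. A ratio of counts within a library does not depend on the scaling between libraries. The ratio of *nefma* to *nefmb* counts had a log2 value of -1.22, -0.78, -0.85 and -0.94 in WT replicates 1 to 4 and -1.81, -1.83, -1.69 and -2.03 in *mtmr5*-KO replicates 1 to 4. There were thus 0.518 *nefma* counts for each *nefmb* count in WT and 0.280 in *mtmr5*-KO, and no ratio of one genotype was among those of the other. The difference was -0.89 on the log2 scale (p = 0.0286 by a two-sided exact permutation test, as low as 4 libraries against 4 can reach, and 0.114 after Benjamini-Hochberg adjustment over the 4 ratios compared). With the replicate numbers as pairs, an exact sign-flip test gave p = 0.125, the smallest that 4 pairs allow.

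For the light subunit the genotypes overlapped. The log2 ratio of *nefla* to *neflb* was 0.39 ± 0.24 in the WT libraries and 0.22 ± 0.09 in those of *mtmr5*-KO (mean ± SD of 4, p = 0.257 by the exact permutation test). The values ran from 0.09 to 0.62 in WT against 0.15 to 0.35 in *mtmr5*-KO, all within the WT range. The ratio of summed medium to summed light subunit counts overlapped too, with log2 values of 1.04 to 1.28 in WT against 1.08 to 1.42 in *mtmr5*-KO (exact permutation test, p = 0.229). With 4 libraries each, a difference as large as the spread could have gone unseen in either.

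The ratio of *inaa* to *inab* was even in WT, with log2 values of 4.24 to 4.63, and uneven in *mtmr5*-KO, where replicates 1 and 2 had 4.27 and 4.53 and replicates 3 and 4 had 2.34 and 3.20 (exact permutation test, p = 0.2). Only uniquely mapping reads were counted, so that reads from stretches shared by paralogs would be missing from both, and the extent of such stretches was not measured here.

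**Figure D4:**
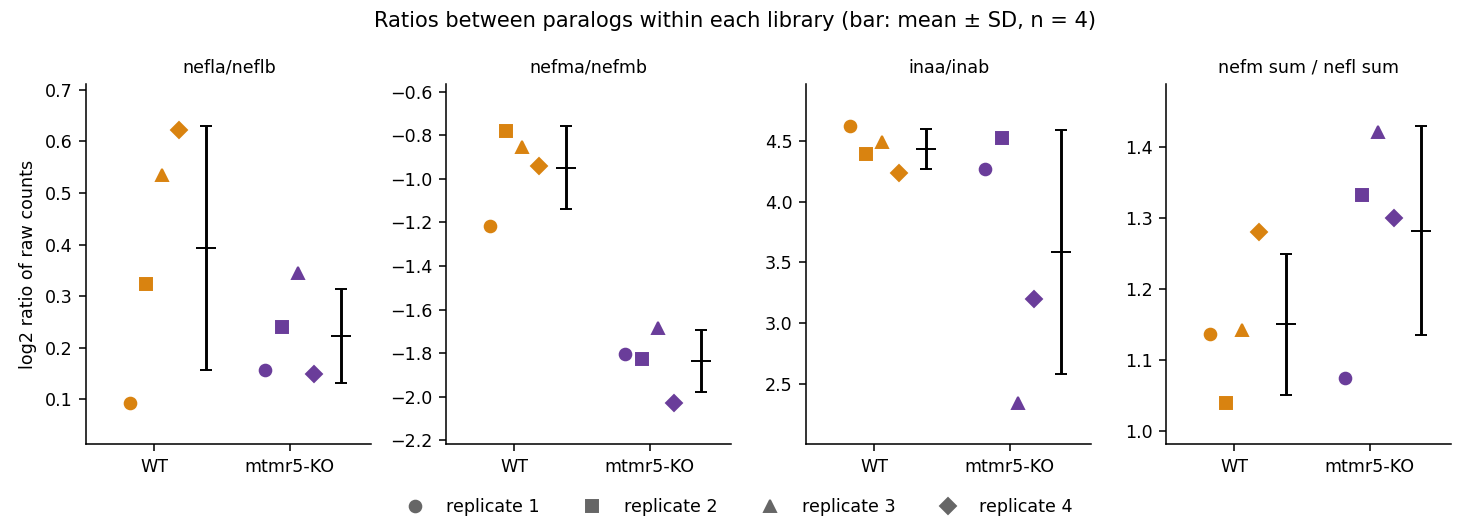
Log2 ratio of raw counts between paralogs within each library (0.5 added to each count), with the symbol giving the replicate and the bar the mean ± SD, n = 4. The ratio of *nefma* to *nefmb* runs from -1.22 to -0.78 in WT against -2.03 to -1.69 in *mtmr5*-KO, and the other ratios overlap between the genotypes.

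As shares of the reads assigned to the 8 genes, *nefmb* took 17.1% to 27.9% in WT against 33.5% to 46.9% in *mtmr5*-KO. *neflb* took 5.85% to 7.15% and 9.37% to 11.2%, and *nefla* 6.72% to 10.6% and 10.8% to 12.5%. The share of *vim* was 13.8% to 21.1% in WT against 7.01% to 10.4% in *mtmr5*-KO, and that of *prph* 1.25% to 1.67% and 0.714% to 1.097%. A larger share of one gene lowers those of the others, so the shares describe the mix of filament transcripts and not the level of each. *nefma* and *inaa* overlapped between the genotypes, at 8.60% to 14.5% and 9.56% to 14.0% for *nefma* and 21.9% to 41.3% and 6.46% to 27.4% for *inaa*. The share of *inab* overlapped too, at 1.15% to 1.69% in WT against 0.720% to 1.41% in *mtmr5*-KO. Levels of different genes were not compared with each other, since counts grow with transcript length.

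Of 14 tested other intermediate filament genes, 3 were higher and 1 was lower (edgeR, adjusted p under 0.05), beside 13.5% and 7.51% of all tested genes, with a median log2 fold change of 0.22. With the replicate block 4 were higher and 2 were lower, beside 14.8% and 11.7% of all tested genes. With library totals 1 was higher and 6 were lower, beside 3.71% and 55.7% of all tested genes. *neff1*, a neuronal intermediate filament gene of the neurofilament class, had 1009, 1182, 1464 and 1780.3 TMM-scaled counts in WT replicates 1 to 4. The *mtmr5*-KO values, in the same order, were 3925, 4338, 6682 and 7641. Its log2 fold change of 2.05 ± 0.23 (± SE, adjusted p = 1.04e-05) was beside that of *nefmb*, its genotypes did not overlap either, and with library totals it was 1.05 (adjusted p = 0.000399). *desma*, the desmin of muscle, had a log2 fold change of 1.28 and *iffo1a* one of 1.34 (0.30 and 0.37 with library totals, where neither was called). The call of *iffo1a*, at an adjusted p of 0.0315, ended without any single one of WT replicates 1, 2 or 3 or *mtmr5*-KO replicates 1 or 3 (adjusted p = 0.0771, 0.0985, 0.0681, 0.0777 and 0.0778). *bfsp2*, a beaded filament protein of lens fibres, fell by 4.81 on the log2 scale, from 6662 ± 5308 to 234 ± 169 TMM-scaled counts (mean ± SD of 4 libraries, adjusted p = 0.0136, edgeR). *gfap*, the filament of radial glia, had a log2 fold change of 0.59 (-0.39 with library totals) and was not called (adjusted p = 0.136). Of the 9 radial glia and astrocyte markers, 2 were lower, beside 7.51% of all tested genes. The count was 7 with library totals, beside 55.7% of all tested genes, and 1 without any single one of WT replicates 2, 3 or 4 or *mtmr5*-KO replicate 1.

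*neff2*, which was picked for its name after its values were seen, did not follow *neff1*. It had 940 to 1536 TMM-scaled counts in WT against 673 to 1291 in *mtmr5*-KO, and the genotypes overlapped. For *neff2* the log2 fold change was -0.25 (95% interval -0.66 to 0.17, adjusted p = 0.412 from edgeR). With the pan-neuronal markers as reference it was lower, at -0.82 (adjusted p = 0.00236), and with library totals at -1.20 (adjusted p = 0.000551).

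Of 22 genes for linkers, motors and regulators of intermediate filaments, 6 were higher and 3 were lower, beside 13.5% and 7.51% of all tested genes, with a median log2 fold change of 0.44. With library totals 2 were higher and 10 lower, beside 3.71% and 55.7% of all tested genes. Both plectin genes, whose products link intermediate filaments to other parts of the cytoskeleton, were higher, *pleca* at 1.39 ± 0.20 (log2 fold change ± SE, adjusted p = 0.000148, edgeR) and *plecb* at 0.81 (0.39 and -0.17 with library totals, where neither was called). *DST*, the gene of dystonin, another linker of the plakin family, was lower at -0.53 (adjusted p = 0.0109). Kinesin heavy chains of the KIF5 group carry neurofilaments along axons in mice, and *kif5c* was higher at 2.21, from 22.2 ± 7.49 to 103 ± 26.5 TMM-scaled counts (mean ± SD of 4 libraries). *kif5aa* was lower at -0.75, from 4120.0 ± 84.8 to 2457 ± 365 (adjusted p = 0.00174 from edgeR). Activators of Cdk5, a kinase of neurofilament side arms, also differed in sign, with *cdk5r1b* at 1.57 (0.49 and not called with library totals) and *cdk5r2a* at -0.72. A further activator gene, *cdk5r1a*, was higher at 1.86 (adjusted p = 0.0334 from edgeR, and 0.0611 with the replicate block), from 11.0 ± 5.90 to 40.4 ± 24.2 TMM-scaled counts (mean ± SD of 4 libraries). Its genotypes overlapped, and the call ended without any single one of WT replicates 2, 3 or 4 or *mtmr5*-KO replicates 2 or 3 (adjusted p from 0.0802 to 0.125). The *mtmr5*-KO libraries were far apart for *cdk5r1b*, at 159 ± 112 TMM-scaled counts (mean ± SD of 4 libraries), and without replicate 3 its log2 fold change was 0.93 (adjusted p = 0.0431). *trim2a*, a relative of the ubiquitin ligase gene for the light subunit in mice, was higher at 1.82 (adjusted p = 0.000336).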

How the data were processed

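PolyA RNA of 8 libraries was analysed, and groups and replicates were taken from the sample labels. The authors used Trim Galore 0.6.7 for trimming, STAR 2.7.11a for alignment to GRCz11, the Ensembl 113 annotation and HTSeq 2.0.5 for counting uniquely mapping reads, as their methods and the submitters' processing notes state. No strand setting was found in these sources, so antisense reads could not be told apart. The deposited raw counts are whole numbers. The deposited normalized counts, a signal, are these counts divided by 1 size factor per library. No column of the files was left out.

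Genes that reached 10 counts in 3 or more libraries were tested with edgeR 4.0.16 (TMM factors, glmQLFit with robust estimation, glmQLFTest, genotype as the only term) in R 4.3.3, with Benjamini-Hochberg adjustment over all of them. The standard error is the size of the log2 fold change over the square root of F, and intervals are at 95%. Ratios within libraries used counts plus 0.5 and exact permutation tests in scipy 1.17.1. DESeq2 1.42.0, limma 3.58.1, other scalings and filters, the replicate number as a block and left-out libraries were alternatives. The fits were tested on simulated data. Figures used matplotlib 3.10.9. As nothing in the labels ties replicate numbers across genotypes, deviations from the genotype means were compared. Same-numbered libraries correlated at 0.147 to 0.270 and the others at -0.179 to 0.0933 across genes. The numbers were therefore taken as pairs in the replicate block and the sign-flip test, which were alternatives. The main fits and the permutation tests were unpaired.

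The 8 genes, the companion lists, the named genes (list members past an adjusted p of 0.05, up to 8 per list by smallest p, and the 5 genes most like *nefmb*) and the alternatives were chosen with earlier results of these data known. *cdk5r1a*, *viml*, *vimr1* and the genes named from the cell type lists were picked, and the likeness of genes to *inaa* was added, after values were seen.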

Additional observations from a re-analysis of the deposited data

How the results depend on the processing

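*nefla*, *neflb* and *nefmb* were called higher under all 20 alternatives, with log2 fold changes of 0.51 to 1.65, 0.71 to 1.76 and 0.97 to 2.14. With library totals, *nefma* was at 0.07, *inaa* at -0.999, *inab* at -0.39, *prph* at -0.72 and *vim* at -0.77. Thus 1 of the 8 genes was called lower, beside 55.7% of all tested genes. Relative to the pan-neuronal markers, *prph* was at -0.35 and *vim* at -0.38. Without *mtmr5*-KO replicates 3 and 4, *nefma* was at 0.71 and not called, *inaa* at 0.38 and *vim* at -0.11, and the ratio of *nefma* to *nefmb* differed by -0.87 with 2 libraries against 4, which cannot reach an exact p under 0.05. With 1 library left out at a time, the 4 neurofilament genes stayed called, at 0.90 to 1.23 for *nefma*, *inaa* ran from -0.55 to 0.071 and the *nefma* to *nefmb* difference from -0.98 to -0.83, where 3 libraries against 4 allow no exact p below 0.0571. The causes of these changes were not tested beyond the scaling itself.

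With the replicate block, the log2 fold changes were 1.50, 1.68, 1.07 and 1.96 for *nefla*, *neflb*, *nefma* and *nefmb*, and the pairing changed no call among the 8 genes. The paired difference of the *nefma* to *nefmb* ratio was -0.89, where 4 pairs allow no exact p below 0.125.

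Over all tested genes, 2618 were higher and 1457 lower. The counts were 720 and 10818 with library totals, 1415 and 7821 relative to the pan-neuronal markers, 2125 and 2639 with totals without the 20 most abundant rows, 2132 and 963 with limma on the normalized counts, 2879 and 2264 with the replicate block, 1576 and 795 without *mtmr5*-KO replicates 3 and 4, and 2008 and 741 without WT replicate 2. Without *mtmr5*-KO replicates 3 and 4, *bfsp2*, *DST*, *plecb* and *iffo1a* were not called (adjusted p = 0.0531, 0.0532, 0.0711 and 0.0889), and 4 pan-neuronal markers were higher and none lower by edgeR. *inab* and *prph* had at most 173 and 170 raw counts in a library, which limits their precision.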

Other observations

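On the log2 scale, *inaa* was the gene among the 8 whose *mtmr5*-KO libraries were farthest apart, from -1.06 to 0.73 against the WT mean. By the measure used for *nefmb*, and chosen after its values were seen, the genes most like *inaa* among the same 10121 were *LOC110437892* (r = 0.998), *faimb* (r = 0.993), *lrit3a* (r = 0.992), *sv2ba* (r = 0.991) and *selenou1a* (r = 0.987). *lrit3a* encodes a synaptic protein of the retina and *sv2ba* a synaptic vesicle protein. None of these 5 genes was called between the genotypes (edgeR, adjusted p from 0.0744 to 0.811). These correlations are over 8 libraries with the genotype means taken off, and the points share depth and scaling factor.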
